A study of Mus musculus and Homo sapiens with 41 samples.

Results

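H2AK119ub peaks of Tet2-knockout (KO) mouse embryonic stem (mES) cells treated with siRNA against Mbd6 (siMbd6 KO, 3 libraries) were compared with those of wild-type cells treated with the negative control siRNA (WT siNC, 3 libraries). These 6 libraries were chosen by their labels, out of 41 in the series. Both groups were grown in serum with LIF and the inhibitors CHIR99021 and PD0325901, passaged off feeders on gelatin, and transfected in the same way. The siMbd6 KO cells carry the Tet2 deletion and received siRNA against Mbd6, whereas the WT siNC cells had neither. Genotype and knockdown therefore cannot be told apart from this pair alone. A further 4 mES cell groups of 3 libraries each are used as levels beside it: KO cells with siRNA against Nsun2 (siNsun2 KO), KO cells with the control siRNA (siNC KO), and untransfected KO and WT cells. The mark was mapped by CUT&Tag, where antibody-guided transposase cuts and tags DNA near the mark, and each library is represented by its list of called peaks. Sequencing depth is unknown, so a stretch outside the peaks is called unlisted here, which covers both unmarked and thinly sequenced DNA. The paper describes these data as 3 biological replicates. Whether the KO line is a single clone, or how the replicates were separated, is not given in the sources used here. The p-values therefore measure the spread between these libraries.

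H2AK119ub is ubiquitin on a lysine of histone H2A, placed by Polycomb repressive complex PRC1 and found at the promoters of silent developmental genes and, more thinly, over much of the genome. BAP1, the catalytic subunit of the deubiquitylase PR-DUB, removes it. MBD6 is a partner of PR-DUB that also binds m5C in RNA, NSUN2 writes m5C on RNA, and TET2 oxidizes it on chromatin-associated RNA. The comparison asks which H2AK119ub of WT cells was absent from KO cells whose MBD6 had been depleted, and which was listed there but not in WT.

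The sequences below are the central 300 bases of some of the widest stretches on each side of the comparison, shown because the repeat content of the 2 sides differed (mm10, top strand, CpG dinucleotides in capitals). The first set was listed in all 3 WT siNC libraries and in no siMbd6 KO library.
chr6:90034474-90034773: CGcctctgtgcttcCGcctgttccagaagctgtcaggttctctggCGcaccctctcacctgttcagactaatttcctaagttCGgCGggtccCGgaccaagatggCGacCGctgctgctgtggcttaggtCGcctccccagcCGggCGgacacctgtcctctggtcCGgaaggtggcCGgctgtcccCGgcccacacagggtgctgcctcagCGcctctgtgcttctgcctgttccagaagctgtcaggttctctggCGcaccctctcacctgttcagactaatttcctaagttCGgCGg
chr1:192834279-192834578: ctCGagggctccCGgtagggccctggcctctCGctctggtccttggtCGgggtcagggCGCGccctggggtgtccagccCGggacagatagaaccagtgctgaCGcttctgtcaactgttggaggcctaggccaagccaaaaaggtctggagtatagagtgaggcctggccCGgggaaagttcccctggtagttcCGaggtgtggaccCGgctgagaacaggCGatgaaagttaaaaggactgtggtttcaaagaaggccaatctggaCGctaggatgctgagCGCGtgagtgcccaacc
The second set was listed in all 3 siMbd6 KO libraries and in no WT siNC library.
chr9:87839366-87839665: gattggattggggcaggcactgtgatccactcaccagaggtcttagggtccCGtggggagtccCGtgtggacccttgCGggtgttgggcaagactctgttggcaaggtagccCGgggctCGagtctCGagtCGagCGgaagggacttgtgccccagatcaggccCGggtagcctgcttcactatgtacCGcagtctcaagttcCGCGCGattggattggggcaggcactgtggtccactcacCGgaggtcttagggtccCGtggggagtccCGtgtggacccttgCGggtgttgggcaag
chr13:85469605-85469904: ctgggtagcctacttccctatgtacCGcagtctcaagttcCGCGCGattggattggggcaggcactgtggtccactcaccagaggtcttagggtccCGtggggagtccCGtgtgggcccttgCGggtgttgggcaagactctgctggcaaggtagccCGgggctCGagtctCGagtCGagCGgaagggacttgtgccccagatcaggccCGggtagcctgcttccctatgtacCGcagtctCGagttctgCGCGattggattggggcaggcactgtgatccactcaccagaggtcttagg
chr15:7801830-7802129: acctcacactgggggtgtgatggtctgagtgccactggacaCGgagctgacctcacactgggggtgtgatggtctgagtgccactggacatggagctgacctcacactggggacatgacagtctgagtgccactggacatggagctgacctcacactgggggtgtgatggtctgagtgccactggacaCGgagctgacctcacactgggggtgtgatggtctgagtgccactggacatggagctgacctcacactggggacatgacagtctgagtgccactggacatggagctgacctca
The chr6:90034474-90034773 sequence repeated itself at a shift of 212 bases with 98.9% of the overlapping bases identical. Both the chr9:87839366-87839665 and the chr13:85469605-85469904 sequence did so at a shift of 208 bases (97.8% and 94.6% identical), and they shared an unbroken run of 80 bases with each other. No run longer than 10 bases was shared between the 2 sets. The chr15:7801830-7802129 sequence was a different tandem repeat, identical to itself at a shift of 147 bases, with 2 CpGs in place of 17.

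Peaks covered less of the genome in Mbd6-depleted KO cells than in WT cells. The siMbd6 KO libraries covered 2.36, 4.21 and 5.64 Mb, against 10.0, 17.0 and 16.1 Mb in WT siNC, and the groups did not overlap. The means were 4.07 ± 1.65 Mb in siMbd6 KO and 14.4 ± 3.79 Mb in WT siNC (SD, n = 3 each), a log2 ratio of -1.87 (exact two-sided permutation p = 0.1, the smallest that 3 against 3 libraries can give). Within replicate numbers the log2 ratio was -2.08, -2.01 and -1.51. The siMbd6 KO lists held 5606, 9612 and 12139 peaks, and the WT siNC lists 24360, 37392 and 35509. Peaks on the Drosophila spike-in numbered 47, 67 and 64 in siMbd6 KO and 47, 71 and 61 in WT siNC, so the lists of the spike-in were of like length in both groups.

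Covered length in siMbd6 KO lay near that of the other siRNA-treated KO cells and far from that of untransfected KO cells. The siNC KO libraries covered 1.82, 4.30 and 4.28 Mb, and siMbd6 KO exceeded them by 0.25 on the log2 scale (exact two-sided permutation p = 0.7). The siNsun2 KO libraries covered 1.90, 3.86 and 4.25 Mb. Untransfected KO cells, which have the same genotype, covered 11.6, 16.8 and 16.9 Mb, and untransfected WT cells 9.66, 15.3 and 16.2 Mb. The first replicate was the lowest in each of these groups.

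**Figure D1:**
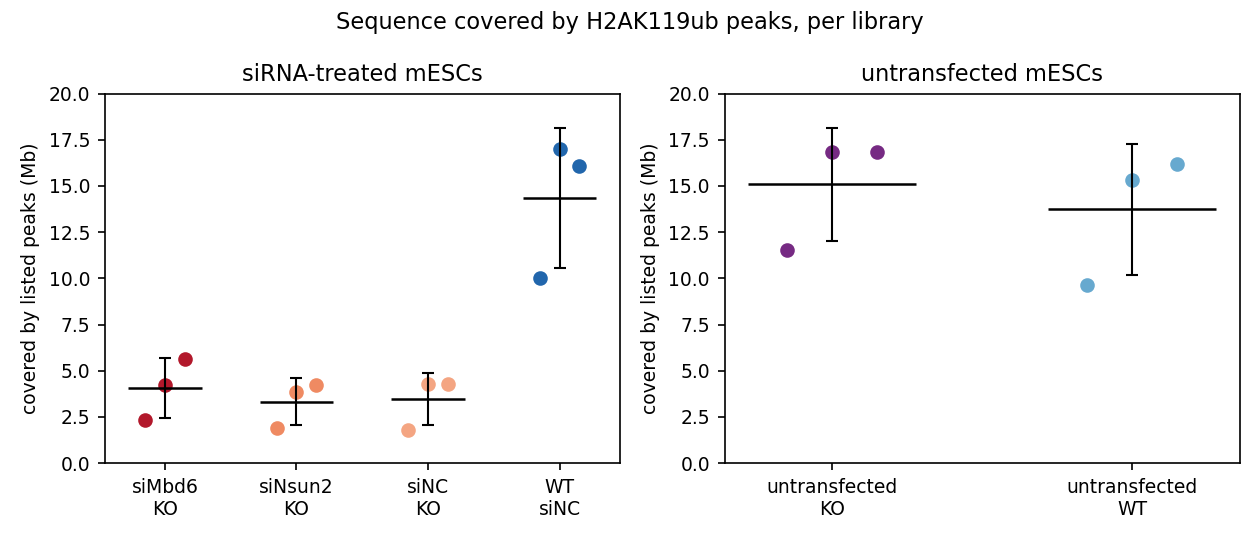
Genome sequence covered by H2AK119ub peaks (Mb) in each library, with siRNA-treated cells on the left and untransfected cells on the right. Points are libraries, lines the group mean and bars 1 SD. The 3 siMbd6 KO libraries lie between 2.36 and 5.64 Mb, below the WT siNC libraries at 10.0 to 17.0 Mb.

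Most sequence marked in WT cells was unlisted in siMbd6 KO, and also in siNC KO, without the knockdown. Of the 13.0 Mb covered in at least 2 WT siNC libraries, 68.2% lay in no siMbd6 KO peak, 15.9% in a peak of 1 library, and 7.40% in peaks of all 3. In no siNC KO peak lay 73.7% of the same bases. Each siMbd6 KO library held 14.6%, 22.9% and 28.5% of the bases that a pair of WT siNC libraries shared, whereas the left-out WT siNC library held 63.3%, 89.6% and 88.2% of them. The means were 22.0 ± 6.98% in siMbd6 KO and 80.4 ± 14.8% in WT siNC (SD, n = 3 each), a difference of -58.4 percentage points (exact two-sided permutation p = 0.1). Measured the same way, siNC KO held 17.8 ± 5.92% and siNsun2 KO 16.2 ± 4.83% (SD, n = 3 each). The gap between siMbd6 KO and WT siNC was smaller but present at equal list length. With each library limited to its 5606 strongest peaks, siMbd6 KO libraries held 32.1%, 35.2% and 35.3% and WT siNC libraries 74.98%, 85.3% and 83.5%.

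Counted as regions, 20139 of 30528 WT regions (66.0%, 10.4 Mb) were unlisted in all 3 siMbd6 KO libraries. A WT region is a merged stretch to which peaks of at least 2 of the 3 WT siNC libraries contribute. Another 4716 regions (15.4%) had a peak in 1 siMbd6 KO library, and 5673 (18.6%) had one in at least 2. The unlisted share was 46.5% with the same number of peaks in every library and 84.3% with peaks of −log10 q of at least 5, so its size followed the peak threshold. In siNC KO 22028 of the 30528 WT regions (72.2%) were unlisted in all 3 libraries. Of the 20139 regions unlisted in siMbd6 KO, 18433 (91.5%) were also unlisted in all 3 siNC KO libraries and 253 were listed in at least 2 of them. In untransfected KO cells 13706 of the same regions (68.1%) had a peak in at least 2 libraries, and in untransfected WT cells 15732 (78.1%). No peak was listed in any untransfected KO library for 2974 of them (14.8%), and in any untransfected WT library for 1470 (7.30%).

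The WT regions unlisted in siMbd6 KO were narrower, poorer in CpG and farther from genes than those still listed. Their median width was 461 bp, against 667 bp for regions still listed in at least 2 siMbd6 KO libraries. They held a median of 28.4 CpG per kb against 50.4, and lay a median of 16540 bp from the nearest transcription start site (TSS) against 4663 bp. Within 1 kb of a TSS lay 25.7% of the unlisted and 41.8% of the still listed regions. Regions listed in 1 siMbd6 KO library were intermediate in each of these values, at 590 bp, 45.2 CpG per kb and 8892 bp. The WT peaks in unlisted regions were also the weaker ones, with a median −log10 q of 4.10, 4.36 and 4.49 in the 3 WT siNC libraries, against 5.58, 6.28 and 6.43 in still listed regions.

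The unlisted share fell with width, from 86.2% of WT regions under 400 bp to 31.9% of those over 1000 bp. By CpG content it was 81.5% at 10 to 20 CpG per kb and 54.8% above 60, and 72.5% below 10, so the poorest regions did not have the highest share. Regions within 1 kb of a TSS were unlisted in 55.9% of cases, those elsewhere in genes in 70.3% and those outside genes in 70.4%. Of the 1852 WT regions that overlap a BAP1 peak of WT cells, 40.1% were unlisted, against 67.6% of the others. Part of that gap came with width. Among regions over 1000 bp the unlisted share was 26.0% with a BAP1 peak and 33.3% without, and among those under 400 bp 34.6% and 87.1%. The shares unlisted in siNC KO followed the same features. They were 89.4% under 400 bp and 38.0% over 1000 bp, and 65.4% within 1 kb of a TSS against 74.3% outside genes. In siNC KO 38.7% of the regions with a BAP1 peak were unlisted and 74.3% of those without. All these shares describe 1 merged set of regions, whose members are not replicates, and carry no test.

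**Figure D2:**
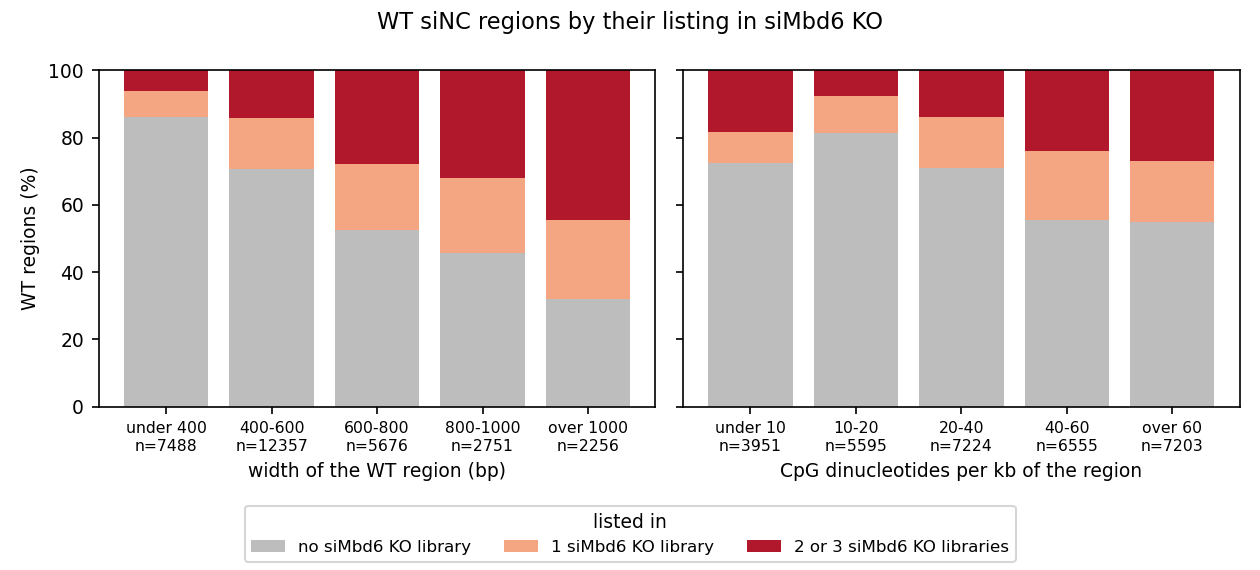
Share of WT siNC regions (%) listed in none, 1, or at least 2 of the 3 siMbd6 KO libraries, by region width (bp, left) and by CpG per kb (right), with the number of regions under each bar. Grey, the unlisted part, shrinks to 31.9% in the widest regions and to 54.8% in the most CpG-rich.

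The widest unlisted region lay on chromosome 6 (90033533 to 90035714), outside any gene and 1127 bp from the TSS of Vmn1r48, a vomeronasal receptor gene. It had no covered base in siMbd6 KO, against 561, 2103 and 1782 bp in WT siNC, and all of it was soft-masked as repeat. Untransfected KO cells covered 1036, 2034 and 1475 bp of it. A region on chromosome 1 (192833449 to 192835409) overlapped an exon of A730013G03Rik over 1766 bp, was 5.86% soft-masked, and had 505, 1286 and 1500 bp in WT siNC. Another, on chromosome 15 (75980732 to 75982631), held 1460 bp of the coding sequence of Ccdc166 and 390, 1139 and 1387 bp of WT siNC peak. It was listed in siNC KO at 309, 624 and 0 bp but not in siMbd6 KO. A further one, on chromosome 18 (24708589 to 24710428), lay in Fhod3, which encodes a formin, and had 556, 1072 and 1663 bp in WT siNC.

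In the full lists, listing beyond WT was the smaller part, and it was mostly repeat sequence. Of 7538 siMbd6 KO regions, made by the same rule, 5667 (75.2%) had a peak in at least 2 WT siNC libraries, 834 (11.1%) in 1, and 1037 (13.8%) in none. In bases, 20.4% of the 3.16 Mb covered in at least 2 siMbd6 KO libraries lay in no WT siNC peak. The 1037 regions beyond WT had a median of 100% soft-masked bases, and 63.1% of them were more than 50% masked, against 18.3% of the regions shared with at least 2 WT siNC libraries. They lay a median of 75928 bp from a TSS, against 4825 bp for the shared regions, and 62.9% were outside genes. Their GC content (median 59.8%) and CpG content (44.2 per kb) were close to those of the shared regions, at 60.4% and 49.3 per kb. The share beyond WT rested on the peak threshold: it was 54.6% with the same number of peaks in every library and 31.5% with peaks of −log10 q of at least 5.

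Most regions beyond WT were also listed in the other KO groups. Of the 1037, 649 (62.6%) had a peak in at least 2 siNC KO libraries, 664 (64.0%) in at least 2 siNsun2 KO libraries and 694 (66.9%) in at least 2 untransfected KO libraries. In untransfected WT cells 80 (7.71%) did, and 720 had no peak in any of the 3. Over all 7538 siMbd6 KO regions the shares were 64.4% for siNC KO, 61.4% for siNsun2 KO, 89.1% for untransfected KO and 75.4% for untransfected WT, so those for siNC KO and siNsun2 KO lay near the shares of all regions. The regions beyond WT were chosen for having no WT siNC peak, and no difference between these shares was tested. In siNC KO 177 were unlisted in all 3 libraries. In bases, 3.75% of the sequence covered in at least 2 siMbd6 KO libraries was listed in neither WT siNC nor siNC KO. The siNC KO and siNsun2 KO lists were set against the same WT siNC libraries and are not separate evidence on them, whereas both untransfected groups share no library with this comparison.

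The widest region beyond WT, on chromosome 9 (87838727 to 87840305), was wholly soft-masked and 107467 bp from the TSS of the T-box factor gene Tbx18. It had 513, 969 and 1466 bp of peak in siMbd6 KO, none in WT siNC, 1414, 1579 and 1579 bp in untransfected KO and none in untransfected WT. The next, on chromosome 13 (85469000 to 85470509, 179870 bp from Rasa1), had 1350, 1380 and 1507 bp in siMbd6 KO. Untransfected KO cells covered 1458, 1510 and 1336 bp of it and untransfected WT cells 0, 273 and 575 bp. A region on chromosome 15 (7801242 to 7802718) lay 8128 bp from Gdnf, the gene of a neurotrophic factor, and had 646, 1336 and 1407 bp in siMbd6 KO. It was not soft-masked, and untransfected WT replicate 3 covered 1115 bp of it. Another on chromosome 13 (106378505 to 106379958, 557000 bp from Ipo11, an importin gene) had 376, 778 and 1454 bp in siMbd6 KO, was wholly soft-masked, and had 1326, 1454 and 1083 bp in untransfected KO and none in untransfected WT. The last of the 5, on chromosome 15 (13002701 to 13004105, 169570 bp from the cadherin gene Cdh6), had 458, 1158 and 1385 bp in siMbd6 KO, no CpG, and no peak in untransfected KO.

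A single 24-base word ran through 52.4% of the regions beyond WT. Words were counted on both strands, and the most frequent among the regions beyond WT is shown first with its CpG in capitals. The second is the word most frequent among the unlisted WT regions.
word beyond WT, chr9:87838903-87838926, bottom strand: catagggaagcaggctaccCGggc
word unlisted in siMbd6 KO, chr6:90033721-90033744, top strand: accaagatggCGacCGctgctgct
The first word was in 543 of the 1037 regions beyond WT (52.4%), in 322 (38.6%) of those with a peak in 1 WT siNC library, and in 245 (4.32%) of those in at least 2. Among the 20139 unlisted WT regions 5 held it. The second word was in 1233 of the unlisted WT regions (6.12%) and in no region beyond WT. The chr13 sequence above holds the first word on its bottom strand and the chr6 sequence holds the second. Arrays of tandem units of this kind form the start of young mouse LINE-1 elements. The reference tables used here carry no repeat annotation, so neither word is given to a family. Mapping placed a read that matches many copies at 1 best place, so single copies are uncertain and the sums over copies are the firmer values.

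Copies of the first word made up 2828 separate places in mm10. In siMbd6 KO 736, 1147 and 1381 of them had a peak, against 83, 435 and 438 in WT siNC, although the siMbd6 KO lists were the shorter ones. With 5606 peaks in each library the counts were 736, 954 and 1089 in siMbd6 KO and 4, 4 and 3 in WT siNC. These peaks took 15.4%, 15.3% and 14.8% of all covered bases in siMbd6 KO and 0.294%, 1.14% and 1.2001% in WT siNC. The word was chosen on these libraries, so their counts are a description. The untransfected cells were not used to choose it. There 1638, 1936 and 1968 places had a peak in KO, against 116, 363 and 512 in WT, and the groups did not overlap (exact two-sided permutation p = 0.1). The siNC KO libraries had 641, 1304 and 1271 such places and the siNsun2 KO libraries 676, 1264 and 1291, and the counts of the 3 siRNA-treated KO groups overlapped.

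The second word behaved differently. Of its 2758 places, 43, 262 and 584 had a peak in siMbd6 KO, against 1320, 2021 and 2012 in WT siNC. At equal peak number the counts overlapped, with 43, 98 and 155 in siMbd6 KO and 66, 118 and 149 in WT siNC. In untransfected cells 1468, 2019 and 2090 places had a peak in KO and 1428, 1976 and 2077 in WT (exact two-sided permutation p = 0.7). Loss at this sequence was seen in the siRNA-treated KO cells, whose lists were short, and not in untransfected KO cells. Without the regions that hold the first word, which was a choice made after seeing the data, 494 of 6428 siMbd6 KO regions (7.69%) lay beyond WT and 20134 of 30277 WT regions (66.5%) were unlisted.

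**Figure D3:**
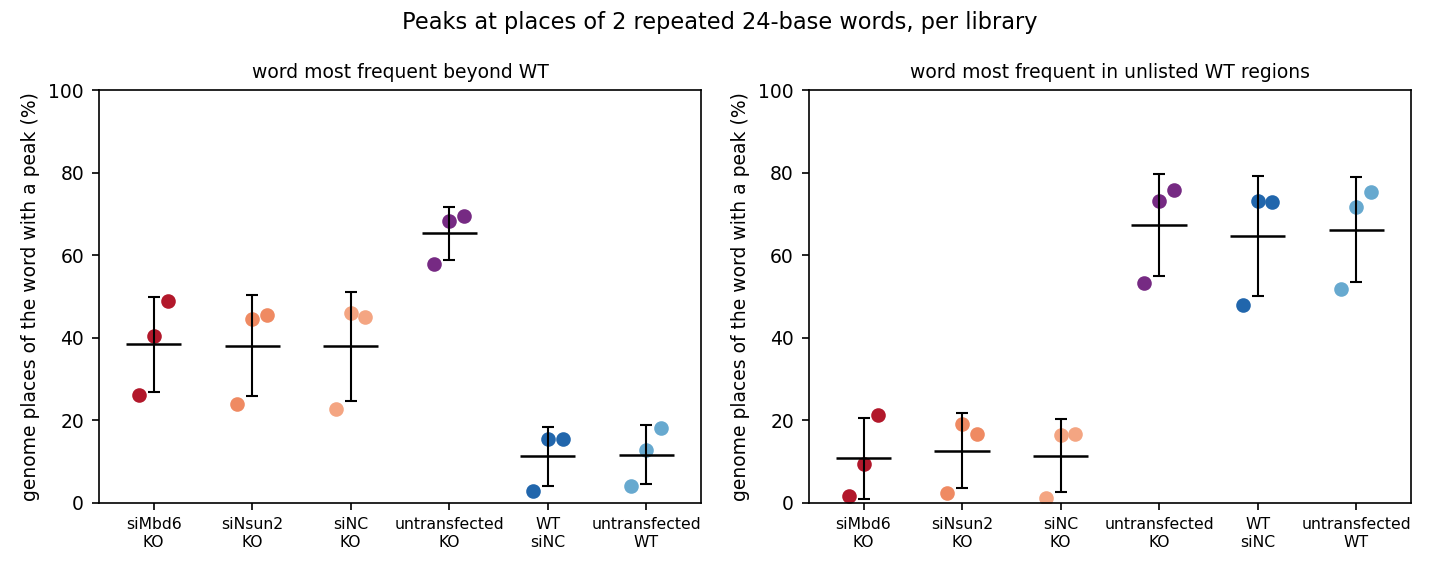
Share of genome places (%) of the word most frequent beyond WT (left) and of the word most frequent in unlisted WT regions (right) that had an H2AK119ub peak, in each library. Points are libraries, lines the mean and bars 1 SD. On the left all KO groups lie above both WT groups, and on the right the 3 siRNA-treated KO groups lie below the rest.

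The composition of the covered sequence showed the same difference over all peaks. Soft-masked bases made up 31.0%, 32.7% and 34.0% of covered bases in siMbd6 KO, against 19.07%, 21.3% and 21.4% in WT siNC. The means of 32.6 ± 1.51% and 20.6 ± 1.33% (SD, n = 3 each) differed by 11.98 percentage points (exact two-sided permutation p = 0.1, adjusted p = 0.15 over 6 measures). Sequence within 1 kb of a TSS took 26.6 ± 1.16% in siMbd6 KO and 31.1 ± 2.99% in WT siNC. Sequence outside genes took 40.8 ± 0.996% and 35.9 ± 1.97%, each with the same p-values. The soft-masked share was 35.4%, 39.6% and 38.8% in siNC KO, and 36.1%, 44.2% and 40.2% in siNsun2 KO. The TSS share was 23.8%, 21.9% and 22.8% in siNC KO, and 22.04%, 18.95% and 20.23% in siNsun2 KO. In siMbd6 KO the TSS share was 27.9%, 26.1% and 25.7%. On both measures siMbd6 KO lay between WT siNC and the other siRNA-treated KO groups, without overlap. Differences between the KO groups were not tested. GC content was 59.3% in siMbd6 KO and 58.1% in WT siNC, but with peaks of −log10 q of at least 5 the difference was -0.55 and at equal peak number -0.29. The share in genes beyond 1 kb of a TSS (32.7% and 32.9%, exact p = 0.7) and the median peak width (378 and 387 bp, exact p = 0.6) lay within the spread between libraries. At equal peak number the difference in median width was -89 bp (exact two-sided permutation p = 0.1), and with stricter peaks -29 bp.

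At the repeat loci that the study probed by PCR, peaks were rare in both groups. Exact matches of both primers gave 10945 LINE, 992 IAP, 623 MERVL, 71 MusD and 36 SINE loci. The LINE loci had a peak within 500 bp in 0.00914% to 0.0365% of cases in siMbd6 KO and in 0.0183% to 0.0365% in WT siNC. For the 9 primer pairs the exact permutation p lay between 0.8 and 1 (adjusted p = 1), and the peak lists could not show a difference there.

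Around genes, less coverage by peaks was the rule in siMbd6 KO. Covered sequence was measured in the 10-kb window centred on the TSS of each protein-coding gene, and 10756 windows with a peak in at least 3 of the 12 siRNA-treated libraries were tested with limma. In siMbd6 KO 7118 windows (66.2%) were lower than in WT siNC and 24 (0.223%) higher at an adjusted p under 0.05. Of the lower windows 4399 had no peak in any siMbd6 KO library. With no spread among those 3 zeros the fitted variance, and hence p, may be too small for such windows. Moreover 3517 of the lower windows had no peak in any of the 9 siRNA-treated KO libraries and were tested only because all 3 WT siNC libraries listed them. Such windows had to come out lower, so their calls, and the counts over gene lists that include them, are descriptions, and no p is given below for a window with a peak in fewer than 3 of these 9 libraries unless WT siNC was the lower group. Of the 7239 tested windows with a peak in at least 1 of the 9, 3601 (49.7%) were lower. Of 12173 windows listed in at least 2 WT siNC libraries, 3455 (28.4%) were still listed in at least 2 siMbd6 KO libraries and 6337 (52.1%) in none. Lower windows numbered 4033 among 4613 tested under the stricter −log10 q limit of 5, 3634 of 10756 after scaling to equal covered length and 1314 of 3350 tested at equal peak number (4251 in each of the 12 libraries). The 3517 windows without a peak in these KO libraries stay at 0 under scaling and were tested there too. The scaled count is therefore no separate support for a loss. Leaving out WT siNC replicate 1, 2 or 3 gave 3538, 2063 and 2154, with fewer windows tested. The number of higher windows was 198 after scaling and 132 at equal peak number. Leaving out siMbd6 KO replicate 1 or 3 gave 44 and 15 higher windows, and leaving out WT siNC replicate 1, 2 or 3 gave 12, 8 and 7.

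Of the 10 named windows with the largest differences below WT siNC, 7 had no peak in siMbd6 KO. Il17rc, which encodes a subunit of the interleukin-17 receptor, had 0 kb in all siMbd6 KO libraries, against 1.34, 1.60 and 1.87 kb in WT siNC, a mean difference of -1.60 kb. Hist3h2a, a gene of histone H2A itself, had 0, 0 and 0.298 kb in siMbd6 KO and 1.505, 1.504 and 1.32 kb in WT siNC. Suv39h2, a histone H3 lysine methyltransferase of heterochromatin, was not among these 10 and was named from the list of KRAB zinc finger and LTR repressors. It had 0 kb in siMbd6 KO against 0.958, 1.19 and 1.17 kb in WT siNC. The other windows among the 10 did not form 1 family. They included Psme2 of the proteasome activator, the transporter genes Slco5a1 and Slc16a9, the acyltransferase gene Mboat7 and the sialyltransferase gene St6galnac2. Their differences lay between -1.44 and -1.28 kb. Il17rc, Slco5a1, Psme2, Mboat7 and St6galnac2 also had no peak in any siNC KO or siNsun2 KO library. All of these were listed in the 3 untransfected KO libraries, from St6galnac2 with 0.237, 0.664 and 0.751 kb to Mboat7 with 1.11, 1.58 and 1.71 kb. The Vmn1r48 window, with 0 kb in siMbd6 KO and 0.561, 2.10 and 1.78 kb in WT siNC, held the repeat region on chromosome 6 described above.

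Windows of genes that every dividing cell uses were mostly unlisted in siMbd6 KO. Of 19 tested housekeeping windows 17 were lower, as were 9 of 11 ribosomal protein and 20 of 26 cell cycle and replication windows, and none rose, against 66.2% of all windows lower. Of these lower windows 12, 6 and 11 had no peak in any siRNA-treated KO library. Housekeeping windows held a summed 0.262, 1.37 and 1.13 kb in siMbd6 KO, against 8.81, 12.2 and 11.7 kb in WT siNC. Cdt1, which licenses replication origins, had 0 kb in siMbd6 KO and 0.710, 0.662 and 0.743 kb in WT siNC. Ccnb1, the mitotic cyclin B1, Mcm4, a subunit of the replicative helicase, Ywhaz and Rps18 were likewise at 0 in all 3 siMbd6 KO libraries and listed in all 3 of WT siNC. Only 1 of 23 WT-listed housekeeping windows, 1 of 15 ribosomal protein windows and 7 of 30 cell cycle windows were still listed in at least 2 siMbd6 KO libraries. By the same rule siNC KO listed 2, 1 and 2 of them. Untransfected KO cells, of the same genotype, listed 22, 9 and 30. After scaling 13, 6 and 11 windows of the 3 lists were lower and none higher. Windows without a peak in any siRNA-treated KO library stay at 0 under scaling, so these counts are no separate support for a loss.

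Among pluripotency genes 9 of 13 tested windows (69.2%) were lower and none higher, near the 66.2% of all tested windows. Nanog, a core factor of the pluripotent state, had 0 kb in siMbd6 KO and 0.507, 0.760 and 0.455 kb in WT siNC. Zfp42, the stem cell marker REX1, had 0 kb against 0.372, 0.477 and 0.331 kb. Klf5 kept 0, 0.226 and 0.238 kb in siMbd6 KO against 0.699, 0.706 and 0.783 kb in WT siNC. As a check of cell identity, windows of 10 mES cell markers held a summed 0.357, 1.36 and 1.18 kb in siMbd6 KO and 3.52, 4.39 and 4.10 kb in WT siNC. Those of 10 feeder fibroblast markers had a peak in 0, 2 and 2 cases in siMbd6 KO and in 3, 5 and 5 in WT siNC. A repressive mark is not expression, so neither list measures cell content, and the part of feeder cells in these values was not tested.

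Developmental genes, the classical Polycomb targets, were still listed more often than windows over all, a difference that was not tested. Of 73 WT-listed windows of developmental transcription factors 42 (57.5%) were still listed in at least 2 siMbd6 KO libraries. Of 34 HOX windows 19 (55.9%) were, against 28.4% of all WT-listed windows. In siNC KO 38 of the 73 and 12 of the 34 were listed, against 20.7% of all. HOX windows held a summed 5.57, 8.69 and 11.9 kb in siMbd6 KO and 14.1, 23.8 and 21.9 kb in WT siNC. Of 34 tested HOX windows 16 (47.1%) were lower, against 66.2% of all windows, and none was higher. Hoxd13, a HOX gene of the distal limb and genital bud, had 0.270, 0.404 and 0.443 kb in siMbd6 KO and 0.224, 0.431 and 0.547 kb in WT siNC (limma adjusted p = 0.866). Hoxc13 kept 0.286, 0.295 and 0.325 kb in siMbd6 KO against 0.923, 0.996 and 1.02 kb in WT siNC (limma adjusted p = 6.77e-05), while Hoxb2 and Hoxc8 were at 0 in siMbd6 KO. Of 73 tested windows of developmental factors 25 (34.2%) were lower, against 66.2% of all windows. Cdx2, the trophectoderm and caudal factor, kept 0, 0.405 and 0.454 kb in siMbd6 KO against 0.972, 1.09 and 1.12 kb in WT siNC (limma adjusted p = 0.000193), and Gata2 and Cdx1 were at 0 in siMbd6 KO.

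In the WNT, BMP, FGF and hedgehog list 12 of 41 tested windows (29.3%) were lower, against 66.2% of all windows, and 19 of 39 were still listed, against 28.4% of all, with the morphogen gene Shh at 0 kb in siMbd6 KO against 0.365, 0.361 and 0.358 kb in WT siNC. In the NF-kB, cytokine and NOD-like list 18 of 22 (81.8%) were lower, 11 of them without a peak in any siRNA-treated KO library, and the difference between the 2 lists was not tested. Nfkb2 was at 0 kb in siMbd6 KO against 0.615, 0.569 and 0.716 kb in WT siNC, and the feedback inhibitor genes Socs3 and Nfkbia also had no peak in siMbd6 KO. The direction of the developmental lists depended on scaling. After scaling to equal covered length, which moved the median difference of all windows to -0.11 kb against -0.38 kb unscaled, 2 HOX windows were lower and 0 higher, and 3 developmental factors were lower and 6 higher. The median difference was then 0.09 kb for HOX windows, 0.10 kb for developmental factors and 0.06 kb for the WNT, BMP, FGF and hedgehog list.

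**Figure D4:**
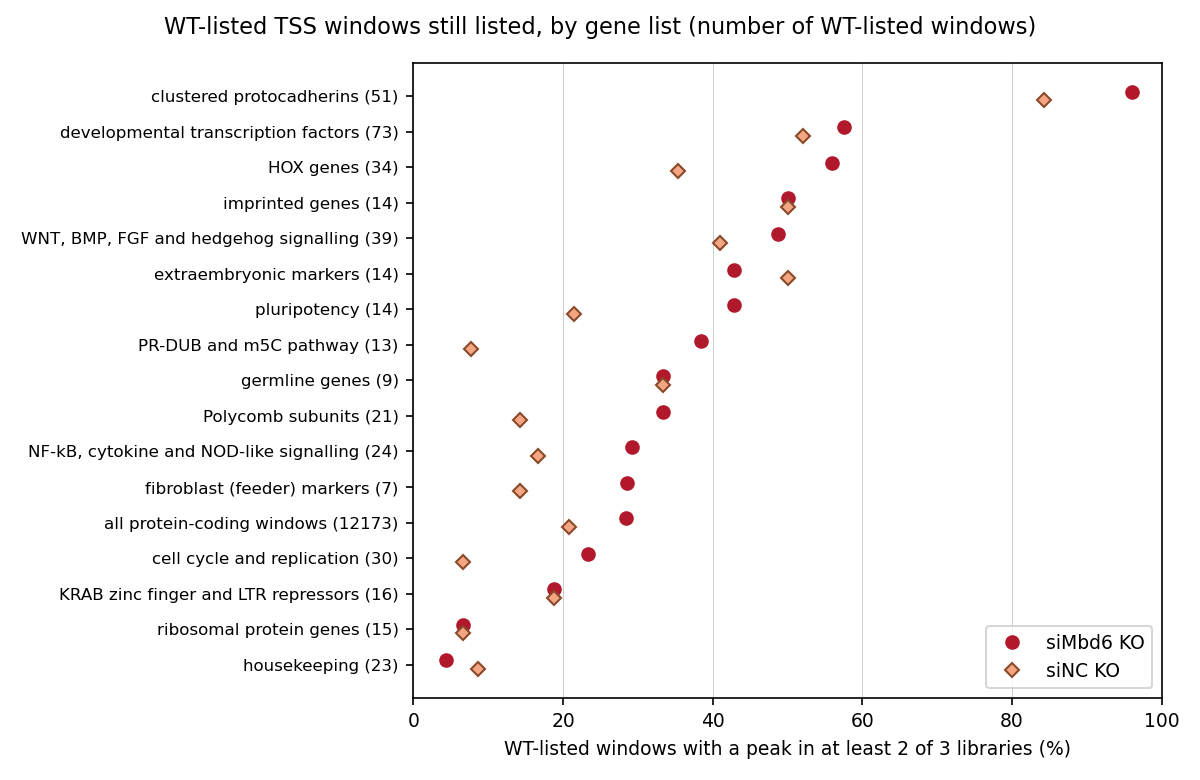
Share (%) of windows listed in at least 2 WT siNC libraries that were still listed in at least 2 libraries of siMbd6 KO (circles) or siNC KO (diamonds), for each gene list, with the number of WT-listed windows in brackets. Over all windows 28.4% were still listed in siMbd6 KO, with clustered protocadherins at the top (49 of 51) and housekeeping genes at the bottom (1 of 23).

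Windows of the enzymes and readers of the pathway itself were measured too, as levels of the mark at their promoters and not of their RNA. In the PR-DUB and m5C list, of which 25 of 26 members matched, 6 of 14 tested windows (42.9%) were lower and none higher, against 66.2% of all windows. Mbd6 had 0, 0.349 and 0 kb in siMbd6 KO and 0.316, 0.642 and 0.494 kb in WT siNC, with overlapping groups. The RNA methyltransferase genes Nsun4 and Nsun6, and Pspc1, an RNA-binding partner of TET2, were at 0 in siMbd6 KO and listed in all 3 WT siNC libraries. Tet2, Nsun2, Bap1 and Asxl1 had too few peaks for a test, and Tet2 was listed at 0 in siMbd6 KO and at 0, 0 and 0.217 kb in WT siNC. The peak lists therefore check neither the deletion nor the knockdown. Of 19 tested windows of Polycomb subunits 14 (73.7%) were lower, near the share of all windows, with Pcgf2, Phf1 and Epop at 0 in siMbd6 KO.

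In the list of KRAB zinc finger and LTR repressors 8 of 12 tested windows (66.7%) were lower, close to the 66.2% of all windows, Dnmt3l, a cofactor of DNA methylation, among them with 0 kb in siMbd6 KO and 0.398, 0.771 and 0.582 kb in WT siNC. Of 10 tested germline windows 4 were lower, among them Tdrd1 and Brdt, which had 0.279 and 0.238 kb in siMbd6 KO replicate 1 only. After scaling these differences were 0.02 kb for both Tdrd1 and Brdt. Of the extraembryonic markers 11 of 14 (78.6%) and of the feeder markers 4 of 6 (66.7%) tested windows were lower, the second share being near that of all windows.

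Imprinted genes and clustered protocadherins kept the largest part of their covered kb among the gene lists. Imprinted windows, of which 21 of 24 members matched, kept 75.3% of the WT siNC kb, against 26.7% over all windows. Of 14 WT-listed imprinted windows 7 (50%) were still listed, a smaller share than for developmental factors (57.5%) or HOX genes (55.9%). Of 14 tested imprinted windows 3 were lower, against 66.2% of all windows. These were Igf2r and the pair Peg3 and Usp29, which share a promoter and count once as a locus, with 0, 0 and 0.338 kb in siMbd6 KO against 0.477, 0.884 and 0.897 kb in WT siNC. The protocadherin genes encode cell surface proteins of neurons in 3 adjoining clusters on chromosome 18, and 55 of 57 members matched. Their windows held a summed 33.9, 40.4 and 49.6 kb in siMbd6 KO and 32.3, 42.1 and 45.2 kb in WT siNC, and the groups overlapped. Of 51 WT-listed windows 49 were still listed, against 43 in siNC KO. Since neighbouring windows overlap, these are not independent genes.

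Within the protocadherins only the alpha cluster had summed kb without overlap between siMbd6 KO and WT siNC, and differences between clusters were not tested. Alpha windows held a summed 11.7, 12.5 and 16.1 kb in siMbd6 KO and 8.36, 10.5 and 10.1 kb in WT siNC, with 2 of 13 higher and 1 lower. In siNC KO the alpha sums were 8.02, 13.6 and 12.8 kb, which overlapped both groups. Beta windows held 14.2, 18.2 and 21.5 kb in siMbd6 KO and 16.3, 20.9 and 20.8 kb in WT siNC, with 1 of 21 higher. Gamma windows held 7.98, 9.78 and 12.01 kb in siMbd6 KO and 7.61, 10.7 and 14.2 kb in WT siNC, with 3 of 20 lower, Pcdhgc5 and Pcdhga1 among them. In all, 4 windows were lower and 3 higher. After scaling, 19 of 54 were higher and none lower, and with peaks of −log10 q of at least 5, the counts became 12 lower and 1 higher of 31. Pcdha9 had 1.29, 1.07 and 1.82 kb in siMbd6 KO and 0.946, 0 and 0 kb in WT siNC (limma adjusted p = 0.0155). The other KO groups overlapped siMbd6 KO there, with 1.02, 1.38 and 1.34 kb in siNC KO and 1.73, 1.82 and 1.43 kb in untransfected KO. Untransfected WT cells had 0, 0.864 and 0.289 kb. Pcdhb19 had 0.919, 0.921 and 0.982 kb in siMbd6 KO and 0.751, 0.671 and 0.802 kb in WT siNC (limma adjusted p = 0.00971). In siNC KO it had 0.794, 0.743 and 0.774 kb.

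The other windows that rose were few and scattered. Of the 24, 10 carry the names of predicted genes. Mt1, a metallothionein gene, had 0.960, 0.953 and 0.893 kb in siMbd6 KO and 0.308, 0.353 and 0.890 kb in WT siNC (limma adjusted p = 0.0292), with 1 WT siNC library just below the lowest siMbd6 KO library. Untransfected KO cells had 1.36, 1.499 and 1.42 kb there and untransfected WT cells 0.391, 0.384 and 0.435 kb. Hspa1b, a heat shock protein gene with the near-identical copy Hspa1a beside it, had 1.33, 2.01 and 2.01 kb in siMbd6 KO and 0.677, 1.24 and 0.825 kb in WT siNC (limma adjusted p = 0.0368). Otud1, a deubiquitylase gene, had 0.615, 0.834 and 0.884 kb in siMbd6 KO and 0.362, 0.388 and 0.466 kb in WT siNC (limma adjusted p = 0.0280). Untransfected groups overlapped at both genes. Hspa1b had 0.705, 1.12 and 1.65 kb in untransfected KO and 0.913, 1.13 and 1.28 kb in untransfected WT. For Otud1 these were 0.737, 0.749 and 0.772 kb, and 0.693, 0.877 and 0.429 kb. Means in siNC KO and siMbd6 KO were 0.887 and 0.935 kb for Mt1, 1.69 and 1.78 kb for Hspa1b, and 0.463 and 0.778 kb for Otud1. With peaks of −log10 q of at least 5 the differences of Hspa1b, Otud1 and Pcdhb19 were -0.81, -0.28 and -0.41 kb. Krt31, a hair keratin gene, had 0.238, 0.304 and 0.400 kb in siMbd6 KO and none in WT siNC. It was tested only through KO libraries, so no p is given. Untransfected KO cells had 0, 0 and 0.387 kb there and untransfected WT cells 0, 0 and 0.441 kb.

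**Figure D5:**
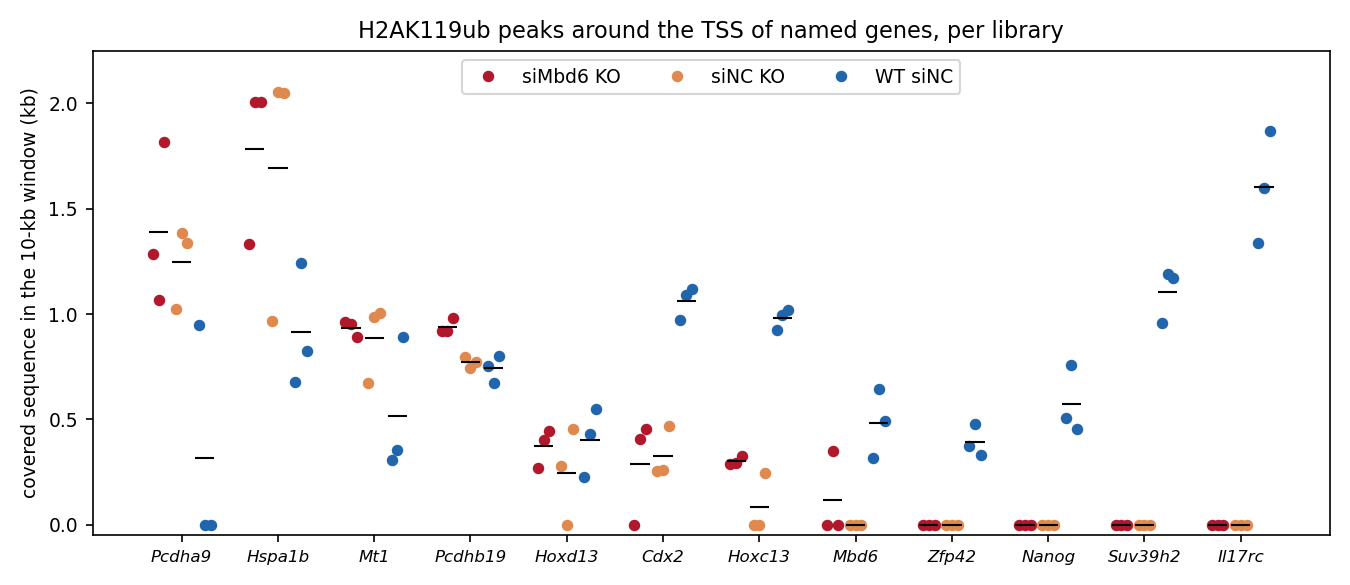
Covered sequence (kb) in the 10-kb TSS window of 12 named genes in each library of siMbd6 KO, siNC KO and WT siNC. Points are libraries and lines group means. Pcdha9, Hspa1b, Mt1 and Pcdhb19 lie higher in siMbd6 KO than in WT siNC, Hoxd13 overlaps, and Zfp42, Nanog, Suv39h2 and Il17rc are at 0 in all siMbd6 KO libraries.

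To place the knockdown beside its own genotype, the same fit compared siMbd6 KO with siNC KO. Of 10756 windows 17 (0.158%) were higher and 2 (0.0186%) lower in siMbd6 KO. All 17 had no peak in any siNC KO library, and in WT siNC all 17 were listed in all 3 libraries. Of the 7538 siMbd6 KO regions, 62.5% had a peak in all 3 WT siNC libraries. The share of all tested windows so listed was not counted, so the WT listing of the 17 is a description. With no spread among the siNC KO zeros the fitted variance, and hence p, may be too small here too. Gda, which encodes a guanine deaminase, had 0.431, 0.393 and 0.474 kb in siMbd6 KO and 0 kb in siNC KO (limma adjusted p = 0.00623), with 0.642, 0.762 and 0.758 kb in WT siNC. Ctu1, a gene of transfer RNA thiolation, had 0.309, 0.438 and 0.453 kb in siMbd6 KO and 0 kb in siNC KO (limma adjusted p = 0.00658), with 0.320, 0.357 and 0.276 kb in WT siNC. Pi4ka and Snap29 share 1 promoter and the same peaks. Both lower windows were at 0 in siMbd6 KO and siNsun2 KO and listed in all 3 siNC KO libraries. Fam183b was also listed in WT siNC, whereas Lingo4 had no peak there and was tested only through siNC KO, so it had to differ. Over all windows, siNC KO had 7732 lower and 23 higher windows against the same WT siNC libraries, and siNsun2 KO 8030 and 19. Of the WT-listed windows 1369 were listed in at least 2 siMbd6 KO libraries and not in siNC KO, and 437 the other way round.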

How the data were processed

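H2AK119ub was profiled by CUT&Tag in 3 siMbd6 KO and 3 WT siNC mES cell libraries. The groups were taken from the labels. The authors trimmed reads with Trimmomatic 0.39, mapped them with Bowtie2 2.4.1 to mm10 and the Drosophila genome, removed duplicates with Picard and ran MACS2 in broad mode on each library. The deposited files are these peak lists. Each peak carries a fold enrichment ratio, −log10 p and −log10 q values and a score, which the authors computed with MACS2. The fold enrichment and −log10 values served here only to describe, filter or rank peaks. The authors' spike-in scaling is not part of the lists, and depth is unknown.

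Python 3.11.15 (NumPy 2.4.6, pandas 2.3.3, SciPy 1.17.1) served to compute regions, covered lengths and 24-base words from peaks of the autosomes, X and Y. All peak ends lay within the reference chromosomes. Interval functions were checked against bedtools 2.31.1. The TSS windows were fitted by limma (version 3.58.1, R version 4.3.3), all 4 siRNA-treated groups (12 libraries) in 1 model, Benjamini-Hochberg threshold 0.05, and this fit was first tested on simulated windows. Plots used matplotlib 3.10.9. Named windows were up to 10 with the largest difference in each direction, at least 20 kb apart, without predicted genes and with groups that do not overlap, up to 3 called members of each list, and a fixed set of genes. Named regions were the 5 widest on each side. One of them is not reported here. Words were counted in the regions of each side. From these the examples in the text were selected with their values known. The 19 windows that differed from siNC KO were outside this rule, and those named were chosen after their values were seen. The regions, gene lists and tests were chosen with earlier results of these data known. Joint coverage of replicate pairs was a fraction of 0.268 to 0.359 in siMbd6 KO and 0.425 to 0.512 in WT siNC, and no 2 lists held the same peaks. Alternatives were a stricter peak threshold, equal peak numbers, other overlaps, windows, filters and scaling, a replicate block, and leaving out each library.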

Additional observations from a re-analysis of the deposited data

Results flagged for a closer look

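The KO to WT difference in covered length was not the same in siRNA-treated and in untransfected cells. The log2 ratio was -1.87 between siMbd6 KO and WT siNC and 0.15 between untransfected KO and untransfected WT. The difference was -2.02 (exact two-sided permutation p = 0.03 over 400 arrangements of the treatment labels within each genotype, smallest possible 0.005). Covered length in siMbd6 KO was below that in untransfected KO by a log2 ratio of -1.96, whereas WT siNC exceeded untransfected WT by 0.06. The siNC KO cells, transfected without the knockdown, had a log2 ratio of -2.12 to the same WT siNC libraries. Transfection and batch cannot be told apart for the KO cells.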

How the results depend on the processing

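The direction of covered length and of the share of WT-marked bases held was kept under all alternatives run. The unlisted share of WT regions (66.0%) was 84.3% with peaks of −log10 q of at least 5, 46.5% at equal peak number, 75.1% when at least 50% of a region had to be covered and 57.2% for regions of all 3 WT siNC libraries, and 59.04% to 74.9% with 1 library left out. The share beyond WT (13.8%) was 31.5%, 54.6% and 20.8% under the first 3 of these, 7.69% without the first 24-base word (added after seeing the data), and 10.9% to 18.9% with 1 library left out. The difference in the share in genes beyond 1 kb of a TSS (-0.24) was 2.3997 with stricter peaks, 8.38 at equal peak number and -0.82 to 0.10 with 1 library left out. That of GC was -0.55 and -0.29. At equal peak number, loci of the LINE primers differed by 0.00914 and of the fourth IAP amplicon by 0.0254 percentage points, with signs opposite to the main values. Lower windows (7118) numbered 4033 with stricter peaks, 1314 at equal peak number, 3634 after scaling and 2063 to 7079 with 1 library left out, and higher windows (24) 132 at equal peak number, 198 after scaling and 7 to 44 with 1 library left out. Over the alternatives for single named windows, 81 checks lost the call at an adjusted p under 0.05, 15 changed sign and 599 did neither. Single windows changed sign: Hspa1b -0.81, Otud1 -0.28 and Pcdhb19 -0.41 kb with stricter peaks. After scaling the differences were 0.0725 kb for Hoxc13, 0.0536 for Pdgfra, 0.0185 for Tdrd1, 0.0215 for Brdt, 0.33 for Pcdhgc5, 0.44 for Hoxd13 and 0.29 for Hoxa9. At equal peak number they were 0.10 kb for Pdgfra and 0.24 for Hoxd13. Hoxd13 was also 0.0463 kb with 2.5 kb on each side of the TSS, and -0.12 to 0.0448 kb with 1 library left out. The cause of these changes was not tested, except that without a WT siNC library fewer windows had a peak in at least 3 libraries. Same-numbered libraries correlated at 0.119, 0.00163 and 0.0607, so the replicate numbers were not taken as pairs. With the replicate number as a block the covered length ratio was -1.87 (exact sign-flip p = 0.25, the smallest possible) and 7417 windows were lower and 34 higher. Depth is unknown, so an unlisted stretch limits every value above.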

Other observations

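Chromosome 8 took a larger part of covered sequence in siMbd6 KO (9.79%, 8.99% and 8.65%) than in WT siNC (7.85%, 7.42% and 7.53%), against 4.75% of genome length. The mean part was 9.03% in siNC KO and 9.04% in siNsun2 KO, but 7.30% in untransfected KO and 7.53% in untransfected WT. Of the 2206 WT regions on chromosome 8, 58.6% were unlisted in siMbd6 KO, against 66.0% of all WT regions and 59.6% of those on chromosome 14. Chromosome 8 was singled out after its values were seen, and neither its copy number nor any other cause was tested. The second most frequent word beyond WT, counted over regions without the first word, was the telomere repeat, in 11 of the 1037 regions (1.06%). It was in 44 (0.776%) of the siMbd6 KO regions shared with at least 2 WT siNC libraries. Its 268 places had a peak in 63.0 ± 6.08 cases in siMbd6 KO and in 48.7 ± 8.33 in WT siNC (SD, n = 3 each), and in 62.7 ± 10.0 in untransfected KO and 47.0 ± 6.93 in untransfected WT (exact two-sided permutation p = 0.2).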
